A study of Homo sapiens with 6 samples.

Results

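The OAS family was measured through 4 genes, OAS1, OAS2, OAS3 and OASL, taken by symbol from a deposited table of 27328 loci. All 4 were found, and all 4 were among the 12064 genes that reached 1 FPKM in at least 3 of the 6 libraries and were tested. FPKM are fragments scaled by gene length and by the library's total, so levels of different genes can be set side by side. The libraries were made from purified mRNA of SACC-83, an established human line from a salivary adenoid cystic carcinoma. In 3 libraries (OE) the cells overexpressed a circular RNA, and in 3 (Vec) they carried an empty vector. The genotype label of the Vec libraries is WT, and those of OE replicates 1, 2 and 3 read circMYBL1, circMYBL2 and circMYBL3 overexpression. The study's design text names circMYBL1 alone, so the 3 were kept as 1 group, which the genotype labels leave uncertain. The labels do not say which vector or promoter was used, whether a line was 1 clone, or whether each library had its own culture. The p-values therefore weigh differences against a spread that may be technical only.

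Oligoadenylate synthetases are interferon-induced enzymes that are switched on by double-stranded RNA and then join ATP into short oligoadenylates with an unusual linkage, called 2-5A. 2-5A serves as a short-lived alarm signal that sets off the breakdown of cellular and viral RNA. In humans OAS1, OAS2 and OAS3 make 2-5A. OASL lacks this activity, ends in ubiquitin-like domains and is known instead for binding the RNA sensor RIG-I and the DNA sensor cGAS. In many epithelial cells the genes are low at rest and rise with interferon or viral RNA.

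On GRCh38 (GENCODE release 29), OAS1 (ENSG00000089127), OAS3 (ENSG00000111331) and OAS2 (ENSG00000111335) lie side by side on the plus strand of chromosome 12, at 112906777 to 112933222, 112938352 to 112973249 and 112978395 to 113011723. OASL (ENSG00000135114) lies apart on the minus strand of the same chromosome, at 121019111 to 121039242. The gap between OAS1 and OAS3 is 5130 bases and that between OAS3 and OAS2 5146 bases. An antisense gene, AC004551.1, overlaps all 3 clustered genes and shares 92 of the 4947 exon bases of OAS1 and 0 of those of OAS2 and OAS3. It was not analysed here, and no source used here says if counting took strand into account, so antisense reads cannot be told from OAS1 reads.

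Interferon-activated transcription factors bind response elements built from repeated GAAA, and the promoters below are shown because OAS1 and OAS3 carry such repeats close to their starts. RefSeq promoter sequence (GRCh38.p14) was at hand for 2 of the 4 genes. Each is the 250 bases before the RefSeq start on the plus strand, chr12:112906712-112906961 for OAS1 and chr12:112938224-112938473 for OAS3, with capitals marking a pair of GAAA that has 2 bases of any kind between them (the core of the interferon-stimulated response element) or 1 base between them, searched on both strands.
OAS1: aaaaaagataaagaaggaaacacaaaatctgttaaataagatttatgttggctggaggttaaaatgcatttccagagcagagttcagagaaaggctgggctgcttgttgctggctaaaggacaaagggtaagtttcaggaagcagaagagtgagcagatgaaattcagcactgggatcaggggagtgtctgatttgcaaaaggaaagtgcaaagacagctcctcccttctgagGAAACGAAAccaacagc
OAS3: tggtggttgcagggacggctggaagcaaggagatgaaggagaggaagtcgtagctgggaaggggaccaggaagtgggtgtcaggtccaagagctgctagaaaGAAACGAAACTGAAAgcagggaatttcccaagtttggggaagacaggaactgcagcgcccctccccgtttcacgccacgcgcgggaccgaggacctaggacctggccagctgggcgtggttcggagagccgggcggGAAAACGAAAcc
The OAS3 window held 2 matches with the spacing of 2, beginning 143 and 12 bases before the start, and an overlapping match with the spacing of 1 beginning 148 bases before it. The OAS1 window held a match with the spacing of 1 alone, beginning 17 bases before the start. This tighter spacing was added to the search after the letters had been seen. Of 35116 promoter windows of the same length, 3.02% held the spacing of 2 and 2.69% the spacing of 1 on either strand. GENCODE begins both genes further upstream, inside these windows. A match describes the letters and does not show that a factor binds there.

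All 6 libraries expressed the 4 genes, and the order of their levels was nearly fixed. OASL was the highest of the 4, followed by OAS3, OAS1 and OAS2, in 5 of the 6 libraries. OE replicate 3 alone had OAS3 (84.0 FPKM) above OASL (73.1 FPKM). Among the tested genes OASL stood between the 92.0th and the 98.6th percentile of a library's FPKM, OAS3 between the 87.5th and the 95.6th, OAS1 between the 60.7th and the 90.6th, and OAS2 between the 38.0th and the 81.4th. Neighbours in this order mostly overlapped across the libraries of a group. In OE libraries the ranges of OASL and OAS3, of OAS3 and OAS1, and of OAS1 and OAS2 all overlapped. In Vec libraries OAS3 (43.0 to 70.8 FPKM) lay above OAS1 (12.8 to 40.6 FPKM), while the other neighbours overlapped.

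OAS2, OAS1 and OAS3 were higher in the OE library than in the Vec library of the same number in every pair, while OASL was higher in 1 pair and lower in the other two. OAS2, at 2.03 times its Vec mean, is the member whose difference passed the test once replicate number was taken into account.

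OAS2, a synthetase that acts as a dimer and makes 2-5A, had 12.1, 30.5 and 21.5 FPKM in OE replicates 1, 2 and 3, against 5.95, 17.7 and 7.85 FPKM in Vec replicates 1, 2 and 3. The groups overlapped, because Vec replicate 2 lay above OE replicate 1, yet each OE library exceeded its Vec partner by a ratio of 2.04, 1.72 and 2.74 in pairs 1, 2 and 3. Means were 21.4 ± 9.20 and 10.5 ± 6.34 FPKM (SD, n = 3 each) in OE and Vec. On the log2(FPKM + 1) scale, which understates changes of low genes, the difference was 1.005 (SE 0.45, limma, adjusted p = 1.0, unadjusted p = 0.0593). With replicate number as a block OAS2 rose (SE 0.12, limma, adjusted p = 0.0167), among 0.0912% of all tested genes that the block fit called higher. That call ended when the variance trend was dropped (adjusted p = 0.0501), when low genes were kept (adjusted p = 0.814) and after a correction for GC content (adjusted p = 0.112). On simulated data the block fit made a larger share of false calls than its threshold of 0.05 allows. The simulated variances were set without the trend that the fit uses, and whether that share holds for these data was not tested. The adjusted p-values of the block fit may be too small, for OAS2 and for the other genes it called.

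OAS1, the smallest of the synthetases in its number of catalytic units, had 22.4, 54.1 and 35.5 FPKM in OE replicates 1, 2 and 3, against 12.8, 40.6 and 15.4 FPKM in Vec replicates 1, 2 and 3. Again Vec replicate 2 reached above 2 of the OE libraries, and again each pair favoured OE, by ratios of 1.75, 1.33 and 2.31. The means of 37.3 ± 15.9 FPKM in OE and 22.9 ± 15.3 FPKM in Vec differed by 0.77 on the log2 scale (SE 0.48, limma, adjusted p = 1.0; with the block SE 0.13, adjusted p = 0.0974), so the test did not pass in either fit. The difference was 0.47 without OE replicate 2 or without Vec replicate 1, and 1.26 without Vec replicate 2.

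OAS3, the longest synthetase and a sensor of long double-stranded RNA, had 48.8, 97.8 and 84.0 FPKM in OE replicates 1, 2 and 3, against 43.0, 70.8 and 45.8 FPKM in Vec replicates 1, 2 and 3. The pair ratios were 1.13, 1.38 and 1.83, so pair 1 was nearly level. Means were 76.9 ± 25.3 and 53.2 ± 15.3 FPKM in OE and Vec, a log2 difference of 0.50 (SE 0.31, limma, adjusted p = 1.0; with the block SE 0.12, adjusted p = 0.337). It moved to 0.30 without OE replicate 2 and to 0.79 without OE replicate 1.

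OASL had 75.6, 196 and 73.1 FPKM in OE replicates 1, 2 and 3, against 66.1, 253 and 86.7 FPKM in Vec replicates 1, 2 and 3. The libraries numbered 2 stood far above the others in both groups, and the pair ratios of 1.14, 0.772 and 0.843 pointed both ways. Means were 115 ± 70.1 and 135 ± 103 FPKM in OE and Vec, and the log2 difference was -0.14 (SE 0.58, limma, adjusted p = 1.0; with the block SE 0.11, adjusted p = 0.805). Its sign turned without OE replicate 1 (0.08), without OE replicate 3 (0.10) or without Vec replicate 2 (0.43).

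**Figure D1:**
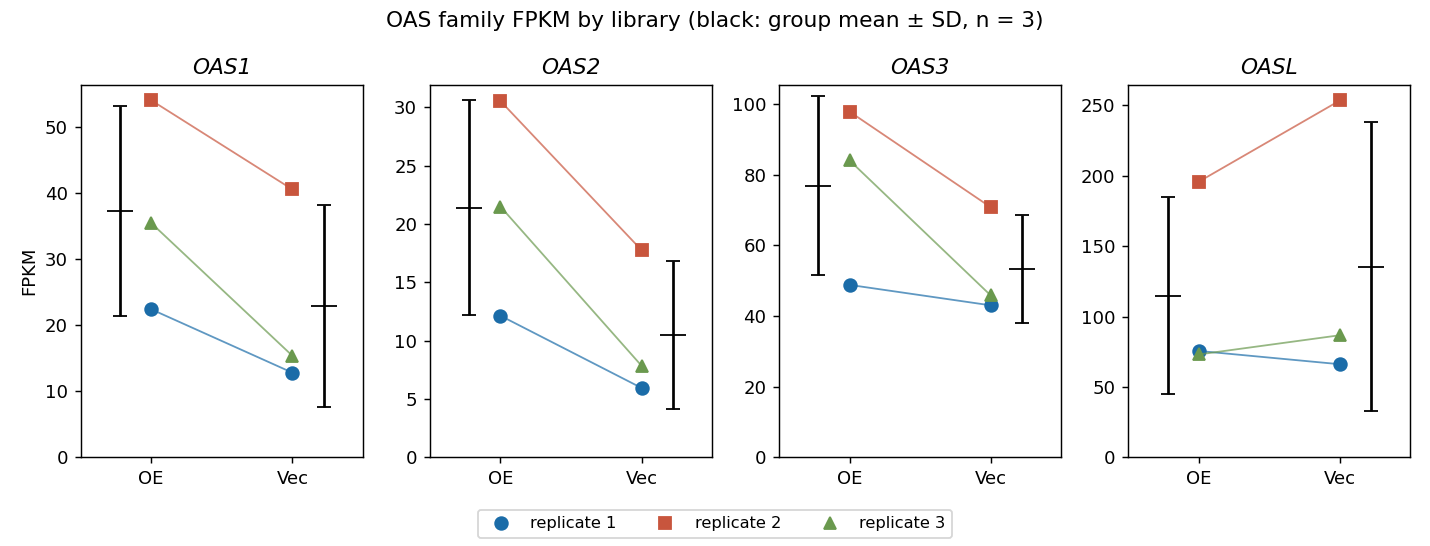
FPKM of OAS1, OAS2, OAS3 and OASL in each library, OE left and Vec right, with lines joining libraries of the same replicate number and black bars giving the group mean ± SD (n = 3). The lines of OAS1, OAS2 and OAS3 all lie higher at OE, while those of OASL cross, and replicate 2 is the highest library of each group for every member.

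Over the 12064 tested genes, limma with group alone called 0 (0%) and put 65 (0.539%) at an unadjusted p under 0.05, none of them a member. Levels were higher in OE in 3 of 3 pairs for 3 of the 4 members and for 16.5% of all tested genes. No member had groups that did not overlap, against 2.5% of all tested genes whose OE libraries all lay above their Vec libraries. The median log2 difference of the 4 members was 0.64, against 0.03 over all tested genes.

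The balance within the family was compared through ratios of members within a library. OASL measured 6.23, 6.41 and 3.40 times the FPKM of OAS2 in OE replicates 1, 2 and 3, against 11.1, 14.3 and 11.1 times in Vec replicates 1, 2 and 3. The groups did not overlap, and the log2 ratio of OAS2 over OASL, from FPKM + 1, was higher in OE by 1.15. Its exact 2-sided permutation p was 0.1, the smallest that 3 against 3 libraries can give, and 0.15 after Benjamini-Hochberg adjustment over the 6 ratios compared. OAS1 over OASL behaved likewise, with log2 ratios of -1.52 ± 0.44 in OE and -2.44 ± 0.17 in Vec (SD, n = 3 each), a difference of 0.92 (exact permutation p = 0.1, adjusted 0.15).

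Among the synthetases themselves, the log2 ratio of OAS2 over OAS1 from FPKM + 1 was -0.78 ± 0.07 in OE and -1.01 ± 0.13 in Vec, without overlap of the groups (exact permutation p = 0.1, adjusted 0.15). That of OAS2 over OAS3 was -1.83 ± 0.16 in OE and -2.33 ± 0.37 in Vec (exact permutation p = 0.1, adjusted 0.15), and here the lack of overlap depended on the pseudocount. In plain FPKM, OAS3 measured 4.02, 3.20 and 3.91 times OAS2 in OE replicates 1, 2 and 3, against 7.23, 3.99 and 5.84 times in Vec replicates 1, 2 and 3, so OE replicate 1 and Vec replicate 2 overlapped. With a pseudocount of 0.1 the exact permutation p was 0.2 (adjusted 0.3). OAS1 over OAS3 and OAS3 over OASL overlapped between the groups (exact permutation p = 0.5 for each, adjusted 0.5), with differences of 0.27 (0.10 to 0.54 when 1 library was left out) and 0.64 (0.29 to 0.90). Ranges of the groups did not overlap for 4 of the 6 ratios from FPKM + 1, against 3.39% of such ratios between any 2 tested genes, and for 3 of the 6 with a pseudocount of 0.1. The 6 ratios rest on 4 genes and are not independent of each other, and none passes at this number of libraries.

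**Figure D2:**
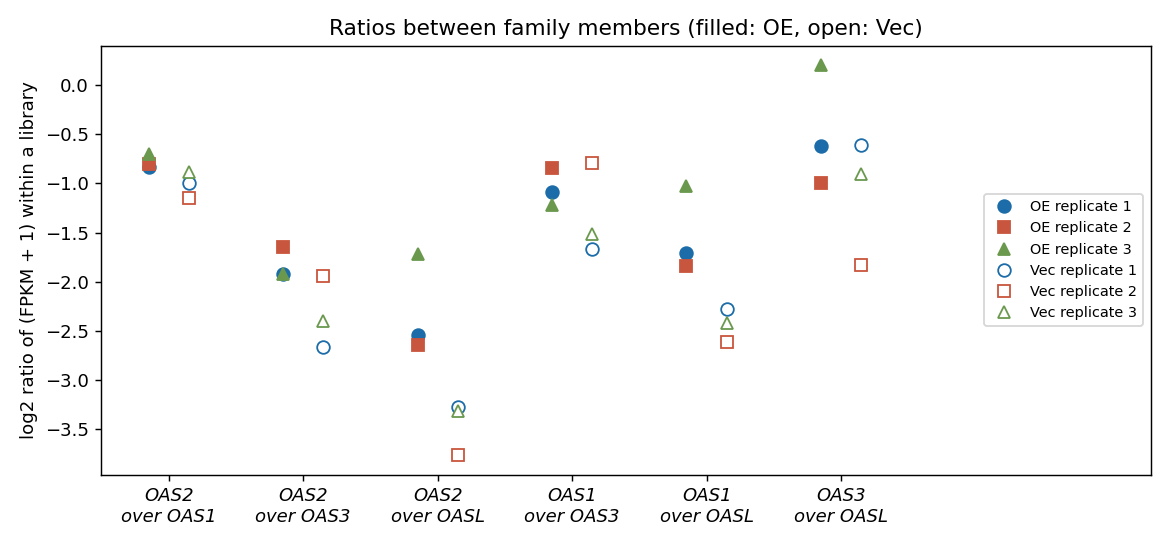
Log2 ratio of FPKM + 1 between 2 members within each library, for the 6 ratios, with OE (filled) left of Vec (open). The OE points of OAS2 over OAS1, OAS2 over OAS3, OAS2 over OASL and OAS1 over OASL all lie above their Vec points on this scale, and those of OAS2 over OAS3 overlap with a pseudocount of 0.1.

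Summed over the 4 genes, the family reached 159, 378 and 214 FPKM in OE replicates 1, 2 and 3, against 128, 382 and 156 FPKM in Vec replicates 1, 2 and 3. The sum was thus nearly level between OE and Vec in pair 2 while its make-up differed. OASL supplied 47.5%, 51.8% and 34.1% of the sum in OE replicates 1, 2 and 3, against 51.7%, 66.2% and 55.7% in Vec replicates 1, 2 and 3. The ranges only just overlapped, since OE replicate 2 (51.75%) lay marginally above Vec replicate 1 (51.70%). OAS2 supplied 7.64% to 10.04% in OE and 4.64% to 5.04% in Vec, and OAS1 14.1% to 16.6% in OE and 9.87% to 10.6% in Vec. The share of OAS3 overlapped between the groups, at 30.7%, 25.9% and 39.3% in OE replicates 1, 2 and 3, against 33.6%, 18.5% and 29.4% in Vec replicates 1, 2 and 3.

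**Figure D3:**
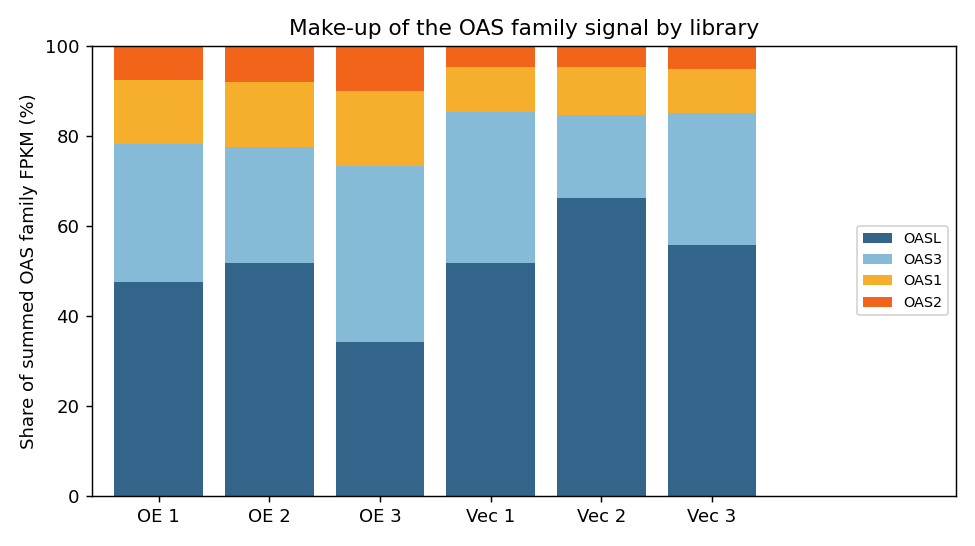
Share of the summed OAS family FPKM (%) held by OASL, OAS3, OAS1 and OAS2 in each library, OE libraries left of Vec libraries. The OAS1 and OAS2 segments are taller in every OE library than in any Vec library, while the heights of the OAS3 and OASL segments overlap.

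Levels also differed by replicate number for all 4 genes. The libraries numbered 2 held the highest level of each member in both groups. Against the mean of replicates 1 and 3, replicate 2 was 2.63 times as high in OE and 3.31 times in Vec for OASL, 1.87 and 2.88 times for OAS1, 1.82 and 2.57 times for OAS2, and 1.47 and 1.59 times for OAS3. The replicate number term passed for all 4 (limma F test in the fit with group and replicate number, adjusted p = 4.89e-05 for OASL, 0.000352 for OAS1, 0.000330 for OAS2 and 0.00446 for OAS3). It also passed for 46.5% of all tested genes, so many genes shared this split. With low genes kept the term no longer passed for OAS3 (adjusted p = 0.0779). What the numbers mark is not in the labels.

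None of 3 other genes of the 2-5A pathway passed for OE against Vec. Of ABCE1, PDE12 and AKAP7, 2 were higher and 1 lower in OE in mean log2(FPKM + 1), 0 of 3 passed in either limma fit at an adjusted or an unadjusted p under 0.05, and their median log2 difference was 0.004, against 0.03 over all tested genes. ABCE1, a ribosome-recycling factor also described as an inhibitor of the 2-5A response, had 28.7, 17.1 and 29.3 FPKM in OE replicates 1, 2 and 3, against 34.5, 13.4 and 30.6 FPKM in Vec replicates 1, 2 and 3. Its log2 difference was 0.004, while its mean FPKM was lower in OE (25.01 in OE against 26.1 in Vec) and it was lower in 2 of 3 pairs. It ran opposite to the OAS genes across replicate numbers, being lowest in replicate 2 of both groups (F test adjusted p = 0.000733). PDE12, a phosphodiesterase that degrades 2-5A, read 3.05 to 4.54 FPKM in OE and 3.16 to 4.92 FPKM in Vec, slightly below its Vec partner in each pair (log2 difference -0.07, limma with the block adjusted p = 0.900). Like ABCE1, PDE12 was lowest in replicate 2 of both groups (F test adjusted p = 0.0357). AKAP7, an anchoring protein whose mouse form degrades 2-5A, read 2.79 to 2.98 FPKM in OE and 2.05 to 3.09 FPKM in Vec (0.14, limma with the block adjusted p = 0.823). Its replicate number term did not pass (F test adjusted p = 0.418).

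**Figure D4:**
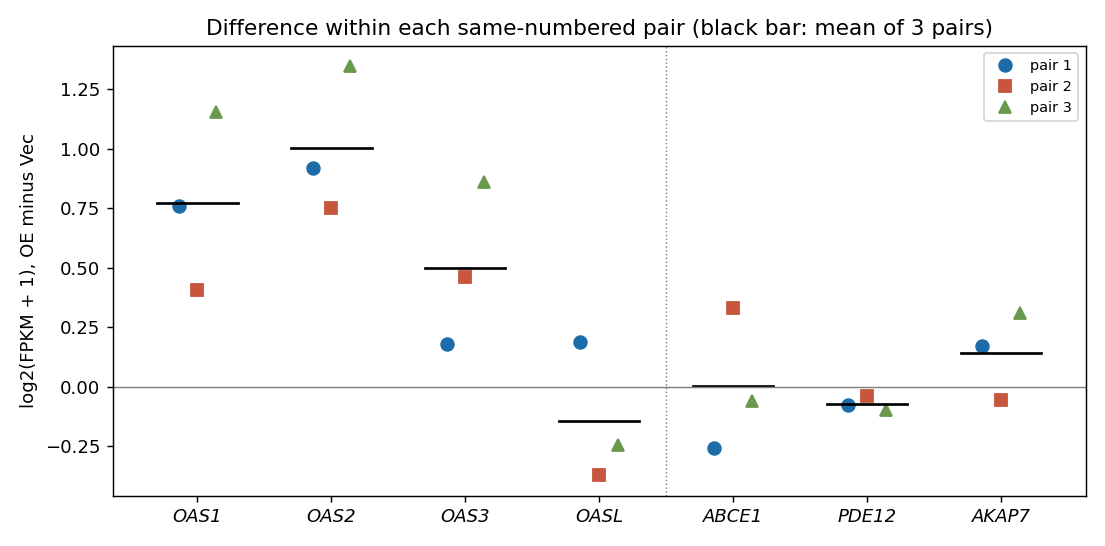
Difference in log2(FPKM + 1), OE minus Vec, within each same-numbered pair for the 4 OAS genes (left of the dotted line) and 3 other genes of the 2-5A pathway, with black bars at the mean of the 3 pairs. OAS1, OAS2 and OAS3 lie above 0 in all pairs, while PDE12 lies between -0.10 and -0.04.

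Of 5 interferon transcription factors, 2 were called higher in the block fit, which called 0.0912% of all tested genes higher and, with low genes kept, no gene (smallest adjusted p = 0.132). They were IRF9, which provides the DNA contact of an interferon-activated complex with STAT2, and IRF7, a factor that also drives interferon genes (limma, adjusted p = 0.00569 for each, and 1.0 with group alone). IRF9 is uncertain, since 1838 of its 3794 exon bases lie in AL136295.5 on the same strand. The others did not pass, with log2 differences of 0.23 for IRF3, 0.14 for STAT2 and -0.01 for IRF1. Of 8 genes of RNA and DNA sensing, 7 were higher in mean log2 level, against 58.1% of all tested genes, and 0 passed in either limma fit. At an unadjusted p under 0.05 there were 0 in the group fit and 2 in the block fit, against 7.19% of all tested genes in the block fit. They ran from 0.31 for IFIH1, a sensor of long double-stranded RNA, to -0.03 for the adaptor MAVS. The partners of OASL lay close to 0, with 0.08 for DDX58, which encodes RIG-I, and 0.02 for CGAS.

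Interferon genes themselves were near or at 0. Of 22 type I, II and III interferon genes, 13 were listed at 0 in all 6 libraries. IFNE, an epithelial type I interferon, was the only one to reach 1 FPKM, at 1.76 to 2.02 FPKM in OE and 1.39 to 2.42 FPKM in Vec. IFNB1 read at most 0.0345 FPKM in OE and 0.0228 FPKM in Vec, and IFNL1 at most 0.599 FPKM in OE and 0.483 FPKM in Vec. Of 6 interferon receptor genes 0 passed in either limma fit (0 at an unadjusted p under 0.05 in either), with log2 differences from -0.13 for IFNGR1 to 0.11 for IFNLR1. Read depth is unknown from these values, so a value of 0 gives no upper limit.

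A wider list of 38 other interferon-stimulated genes placed the OAS family among genes that mostly lay higher in OE. Of the 37 tested, 34 had a higher mean log2 level in OE, against 58.1% of all tested genes, and 28 had it in 3 of 3 pairs, against 16.5% of all tested genes. Their median log2 difference was 0.30, below that of OAS2, OAS1 and OAS3 and above that of OASL. The 2 genes of this list that passed in the block fit were IFI6 (log2 difference 2.30, limma adjusted p = 5.67e-06) and IFI27 (3.04, adjusted p = 1.08e-05). With group alone neither passed (limma, adjusted p = 0.672 for each), and with low genes kept the block fit called no gene. By log2 difference DDX60 (-0.15) and ZC3HAV1 (-0.06) were lowest. The list was drawn up with earlier results of these libraries known and is no independent evidence of its direction.

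Of the genes whose levels ran most like each member over the 6 libraries, only CKB was shared, between OAS1 and OAS2. For OASL these genes were CACNA1H, PKP1 and FZD4 (Pearson's r of log2 values 0.999 for each), and for OAS1 HSH2D (0.996), CKB (0.993) and CCDC159 (0.990). For OAS2 they were CKB (0.994), Homo_sapiens_newGene_10313 (0.989) and HELZ2 (0.983), and for OAS3 IFI44L (0.992), Homo_sapiens_newGene_330 (0.987) and CCNDBP1 (0.985). Every gene named here, for each member alike, was highest in the libraries numbered 2 of each group. Within the family r was 0.95 to 0.98 among OAS1, OAS2 and OAS3 and 0.60 to 0.74 between OASL and these. The libraries fall into the pair numbered 2 and the other four, and that split weighs heavily in every r, so the values describe likeness only.

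Of the genes beside the OAS loci that are given here, 2 were listed at 0 and 4 had log2 differences of -0.01 to 0.13. Next to the OAS1, OAS3 and OAS2 cluster, RPH3A and DTX1 were listed at 0 in all libraries. PTPN11, which lies 396864 bases from OAS1, gave a log2 difference of -0.01. Only 3 neighbours per side of a member were looked at, so a tested gene may lie closer. Beside OASL, SPPL3 gave 0.02, P2RX4 gave 0.13 and CAMKK2 gave -0.01. None of these 4 tested neighbours passed for OE against Vec in either limma fit.

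The labels were checked against MYBL1, from which circMYBL1 takes its name. It read 359, 44.0 and 2025 FPKM in OE replicates 1, 2 and 3, against 9.04, 7.15 and 10.3 FPKM in Vec replicates 1, 2 and 3. Summed FPKM per library was 379404 to 408826 in OE and 371776 to 393350 in Vec. Of 7 epithelial markers, KRT8 and KRT18 made up most of a sum of 1740 to 2007 FPKM in OE and 1712 to 1837 FPKM in Vec, while KRT19 read at most 0.473 FPKM in OE and 1.10 FPKM in Vec. KRT5, a basal keratin, had 94.9, 347 and 104 FPKM in OE replicates 1, 2 and 3, against 120, 412 and 142 FPKM in Vec replicates 1, 2 and 3, lower in OE in 3 of 3 pairs (log2 difference -0.34; limma, adjusted p = 1.0, with the block 0.369). Like the OAS genes it was highest in the libraries numbered 2, and its part in their levels was not tested. CDH1 and KRT14 each gave a log2 difference of -0.11. KRT8 (0.16), KRT18 (0.10) and EPCAM (0.09) went the other way. Of the 6 tested epithelial markers 3 were thus higher and 3 lower in OE, and 0 passed in either limma fit. The defining leukocyte genes PTPRC and CD3E and the plasmacytoid dendritic cell genes CLEC4C and LILRA4, whose cells are known for making interferon, were listed at 0 in all 6 libraries. IL3RA, the third plasmacytoid dendritic cell gene listed and one that other cells also express, read 0.433, 1.48 and 0.470 FPKM in OE replicates 1, 2 and 3, against 0.131, 1.09 and 0.477 FPKM in Vec replicates 1, 2 and 3. The 6 leukocyte markers summed to 0.356 to 0.979 FPKM in OE and 0.425 to 0.723 FPKM in Vec. The 5 fibroblast markers summed to 3.07 to 8.81 FPKM in OE and 4.03 to 11.2 FPKM in Vec, nearly all from COL1A1, with COL1A2 and PDGFRA at 0, and the 4 endothelial markers to 0.199 to 1.38 FPKM in OE and 0.101 to 1.71 FPKM in Vec. In bulk RNA a smaller number of cells with a transcript and less of it per cell cannot be told apart.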

How the data were processed

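The authors deposited FPKM per gene for 6 libraries. The submitters' processing notes name HISAT2 and GRCh38. No source used here gives the counting tool, the annotation or the strand setting. FPKM are relative to a library's total, and the 10 most abundant loci held 9.36% to 13.1% of a library's sum. The deposited value columns held FPKM and no read counts, so depth is unknown and no counting error is given.

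Genes reaching 1 FPKM in 3 or more libraries were tested on log2(FPKM + 1) with limma 3.58.1 in R 4.3.3 (trend, 2-sided, Benjamini-Hochberg over all 12064 genes, threshold 0.05). Group was the only term, and replicate number was added as a block in an alternative fit. Another alternative smoothed each library against GC content (lowess). Deviations from the group means correlated across genes at 0.725, 0.881 and 0.529 between libraries of the same number, all above the limit of 0.1. The pairs follow the replicate numbers, and the labels state no pairing. Libraries numbered 1 and 3 of different groups also correlated, at 0.412 and 0.424. Passing the limit therefore does not tell the partners numbered 1 and 3 apart. Ratios between members were tested by exact permutation (scipy 1.17.1). The fits were tested on simulated data. There the group fit made no false call but missed most of the smaller of the changes put in, while the block fit recovered all of them and made a larger share of false calls than the threshold allows. The simulated libraries held replicate effects taken from the block fit, so its better recovery was built in and does not rank the fits. Their variances were set without the trend that the fits use, and whether the share of false calls holds for these data was not tested.

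The members and lists were chosen with earlier results of these data known. Named genes were the members, MYBL1, the 2-5A list, up to 5 per other list by size of difference, any that passed, the 3 most alike per member and 3 neighbours per side. DDX58, IFNB1, IFNL1 and single markers were named after their values were seen. A planned comparison of member proteins was not run. Some genes of the fixed lists and some neighbours are not reported here.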

Additional observations from a re-analysis of the deposited data

How the results depend on the processing

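Across 7 other settings of pseudocount, filter, scaling and trend without the block, the log2 difference stayed at 0.74 to 0.81 for OAS1, 0.98 to 1.08 for OAS2, 0.44 to 0.51 for OAS3 and -0.20 to -0.14 for OASL, and no gene was called. Leaving out 1 library gave 0 to 1 called genes and ranges of 0.47 to 1.26 (OAS1), 0.71 to 1.42 (OAS2), 0.30 to 0.79 (OAS3) and -0.60 to 0.43 (OASL, sign turned in 3 of 6). None of the 6 member ratios turned sign without any 1 library or with a pseudocount of 0.1. With that pseudocount OAS2 over OAS3 overlapped between the groups (0.57, exact permutation p = 0.2 against 0.1), and the adjusted p of the 3 ratios without overlap was 0.2, against 0.15.

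With the replicate block 12 genes were called, 10 with a pseudocount of 0.1, 9 without a trend, 11 with quantile scaling, 2 after GC correction and 0 with low genes kept; the cause was not tested. OAS2 was called with the block at 1.005, with a pseudocount of 0.1 (1.08, adjusted p = 0.0362) and with quantile scaling (0.98, adjusted p = 0.0286). The block changed no call of OAS1, OAS3 or OASL on all 6 libraries. Without replicate 1 of both groups the block fit called 14 genes (OAS2 1.05), without replicate 3 it called 22 (OAS2 0.83), and without replicate 2 it called 148 (OAS1 0.96, OAS2 1.13, OAS3 0.52). Each of these fits leaves 1 residual degree of freedom per gene, which makes p unreliable in all of them. The replicate number term called 3389 genes with low genes kept, against 5605, and OAS3 missed it there (adjusted p = 0.0779). Depth is unknown, and 3 libraries per group limit every test.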

Other observations

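The 3 OE libraries differed widely in MYBL1, and the pair differences of the OAS genes can be set beside it. MYBL1 differed by 5.16, 2.47 and 7.49 on the log2(FPKM + 1) scale in pairs 1, 2 and 3. OAS1 differed by 0.76, 0.41 and 1.16 and OAS2 by 0.92, 0.75 and 1.35 in the same pairs, so both were largest in pair 3 and smallest in pair 2, as MYBL1 was. OAS3, with 0.18, 0.46 and 0.86, and OASL, with 0.19, -0.37 and -0.24, followed other orders. Of the 1992 tested genes that were higher in OE in 3 of 3 pairs, 8.68% had the pair order of MYBL1. The order of 3 pairs is a description, and MYBL1 FPKM pools all reads of the gene and does not measure the circle. The order also rests on pairing by replicate number, which the labels do not state.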
